A study of Mus musculus with 12 samples.

Results

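Oxidative phosphorylation genes were examined in macrophages grown from mouse bone marrow, as 108 of the 23438 genes in the deposited table. They were chosen by symbol alone. Names beginning with Nduf stood for complex I and its assembly factors (and Ndufa4 and Ndufa4l2 for complex IV), Sdha to Sdhd for complex II, Uqcr and Cyc1 for complex III, Cox4 to Cox8 for complex IV and Atp5 for ATP synthase. All mt-Nd, mt-Co, mt-Cytb and mt-Atp genes were included, and 3 names holding -ps were left out. Of the 108, 95 lie on nuclear chromosomes and 13 on mitochondrial DNA. TPM values are length-corrected shares of a library's transcripts. A level of at least 1 TPM in 5 or more libraries was reached by 103 of them, 90 nuclear and 13 mitochondrial. The 5 members below that filter were Ndufa11b, Cox7b2, Cox8b, Cox8c and Ndufa4l2.

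The study compared wild-type (WT, 7 libraries) with Baf60a knockout (KO, 5 libraries) macrophages. The series places their origin in C57 mice with atherosclerosis, and every label gives primary cells on day 7 of macrophage differentiation, with no other treatment named. Baf60a is the product of Smarcd1, a subunit of the SWI/SNF complex, which moves nucleosomes along DNA. The labels used here do not give the knockout's promoter or Cre, the age or sex of the mice, the diet, or whether each library came from its own mouse. The p-values therefore refer to the spread from library to library, which may be technical.

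The respiratory chain lies in the inner mitochondrial membrane. Complexes I and II take electrons from NADH and succinate, complex III passes them to cytochrome c, complex IV hands them to oxygen, and ATP synthase uses the proton gradient that complexes I, III and IV build. Most subunits are encoded in the nucleus and imported, while a small set is transcribed from mitochondrial DNA as long strands that are then cut into single messages, so every complex except II is assembled from the products of 2 genomes. Macrophages are known to shift between oxidative phosphorylation and glycolysis with their activation state.

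Smarcd1, the targeted gene, stood at 5.99, 6.90, 6.92, 7.58 and 7.12 TPM in KO replicates 1 to 5 and between 11.6 and 15.6 TPM in the WT libraries, with no overlap. All 10 macrophage markers checked were above 0 in every library. Adgre1, which encodes the macrophage antigen F4/80, stood at 371 to 653 TPM and Cd68 at 1119.6 to 1718 TPM. Of the 10, C1qa, Csf1r, Fcgr1, Cd14 and Spi1 lay below every other WT value in WT replicates 2, 3 and 4, while 5 overlapped. Among all tested genes 28.3% lay below there. C1qa was at 188, 474 and 146 TPM there, against 2241 to 3113 TPM across the 9 others. Csf1r was at 215, 275 and 170 TPM, against 541 to 910 TPM. WT replicates 2, 3 and 4 stood apart from the other 9 libraries. Fibroblast markers summed to 1836, 1231 and 2928 TPM for WT replicates 2, 3 and 4, 78.5 to 209.8 TPM in KO and 43.9 to 163 TPM in the remaining WT libraries. Smooth muscle and pericyte markers summed to 4767, 3445 and 9187 TPM for WT replicates 2, 3 and 4, 142 to 476 TPM in KO and 83.6 to 329 TPM in the remaining WT libraries. Calls and medians of KO against WT are therefore given both with all 12 libraries and with the 9 left without these 3. Where a pair of fold changes is given, the first is from 12 libraries and the other from 9. They were singled out from measured values, so they are described library by library, with no mean and no test of their own. Because these are bulk libraries, fewer cells of a type and less RNA per cell cannot be told apart.

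Promoter windows of 4 nuclear members are printed first. The 4 were chosen after their values were seen, and no test below uses the windows. Ndufaf7 was the member that passed the test, and Ndufa11 lay below every WT library in KO. Cox6a1 was among the lower members in both sets of libraries, and Atp5g2 went against its partner gene Atp5g3 in WT replicates 2 to 4. Each window runs from 250 bases before to 50 bases after the start of the gene (RefSeq, GRCm38.p6), 5′ to 3′ on the gene's own strand. Capitals mark the word bound by NRF1, a transcription factor known for nuclear respiratory genes. The windows are Ndufaf7 (chr17:78936885-78937184, plus strand), Ndufa11 (chr17:56717512-56717811, plus strand), Cox6a1 (chr5:115348909-115349208, minus strand) and Atp5g2 (chr15:102670998-102671297, minus strand).
Ndufaf7: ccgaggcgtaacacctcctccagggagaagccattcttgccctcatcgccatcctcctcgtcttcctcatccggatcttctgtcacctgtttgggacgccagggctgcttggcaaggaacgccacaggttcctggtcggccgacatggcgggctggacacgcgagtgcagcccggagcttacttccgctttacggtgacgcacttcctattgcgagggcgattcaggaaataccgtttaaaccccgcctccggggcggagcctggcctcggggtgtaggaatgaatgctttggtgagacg
Ndufa11: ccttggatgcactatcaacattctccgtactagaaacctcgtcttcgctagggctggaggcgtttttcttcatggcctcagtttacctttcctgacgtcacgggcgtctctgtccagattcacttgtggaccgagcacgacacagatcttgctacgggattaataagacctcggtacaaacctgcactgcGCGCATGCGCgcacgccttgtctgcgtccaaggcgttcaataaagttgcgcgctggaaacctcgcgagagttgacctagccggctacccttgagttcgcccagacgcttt
Cox6a1: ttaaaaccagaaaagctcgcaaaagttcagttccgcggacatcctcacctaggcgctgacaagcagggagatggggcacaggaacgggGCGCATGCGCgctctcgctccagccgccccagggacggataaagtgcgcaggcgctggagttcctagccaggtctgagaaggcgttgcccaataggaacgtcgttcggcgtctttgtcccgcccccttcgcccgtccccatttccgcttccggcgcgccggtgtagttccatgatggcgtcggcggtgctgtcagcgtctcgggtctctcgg
Atp5g2: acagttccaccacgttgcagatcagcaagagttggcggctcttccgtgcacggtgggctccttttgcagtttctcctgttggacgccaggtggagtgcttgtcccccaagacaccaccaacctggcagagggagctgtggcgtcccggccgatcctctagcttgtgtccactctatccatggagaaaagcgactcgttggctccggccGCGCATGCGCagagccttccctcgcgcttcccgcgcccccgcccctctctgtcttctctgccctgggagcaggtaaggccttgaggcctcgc
The NRF1 word, which reads the same on both strands, began 60 bases before the start of Ndufa11, 162 before that of Cox6a1 and 42 before that of Atp5g2. Ndufaf7 held none of the 3 words searched in this window. Neither did Ndufa7, Ndufb3, Atp5g3 and Atp5f1, which are also described below. Cyc1 and Ndufaf6 had no window. A link between the words and the levels was not tested.

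A window was found for 75 of the 95 nuclear members. The NRF1 word occurred in 7 of the 75 (9.33%), against 1.07% of all 27025 genes with a window and 2.53% of 8771 tested genes. Its holders were Atp5g2, Atp5k, Cox6a1, Ndufa11, Ndufaf4, Ndufaf5 and Uqcrc1. AAGATGGCG is a word of the factor YY1 and was searched on both strands. It occurred in 8 members (10.7%), against 1.64% of all genes with a window and 3.90% of tested genes. CCGGAAGTG, a word of ETS factors also searched on both strands, occurred in 2 members, Ndufs3 and Uqcrh (2.67%), against 2.25% and 5.38%. No window held more than 1 of these words in members, so 17 of 75 held any. These counts describe letters in a fixed window and say nothing about binding.

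With all 12 libraries, 0 of the 103 tested members differed between KO and WT at an adjusted p under 0.05 (limma, Benjamini-Hochberg over all 11152 tested genes), against 0.126% of all tested genes (14 genes, 0.108% higher and 0.0179% lower in KO). At an unadjusted p under 0.05 there were 9 members in limma, against 17.5% of tested genes. With 9 libraries 1 of 103 members passed, the assembly factor gene Ndufaf7, against 2.33% of tested genes (260 genes, 1.61% higher and 0.717% lower in KO). In that set 22 members had an unadjusted p under 0.05, against 18.9%. The fitted differences were small. The 95% interval of the fold change lay inside 1.5-fold either way for 91 of the 103 members with 12 libraries (67.6% of all tested genes). With 9 libraries this held for 99 of 103 (88.5% of all tested genes). Members and all tested genes were not matched for level, on which the width of the interval also depends.

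The median of the nuclear members lay below that of all tested genes in both sets of libraries. With 12 libraries, 25 of the 90 tested nuclear members had positive and 65 negative fold changes in KO, against 6454 positive of all 11152 tested genes, and the median log2 fold change was -0.06 (-0.11 with median-ratio scaling), beside 0.04 for all tested genes. With 9 libraries, 58 of the 90 were positive, against 7532 of the 11152, and the median was 0.03 (-0.019 with median-ratio scaling), beside 0.05 for all tested genes. The mitochondrial genes had a median of 0.17 with 12 libraries, 11 of 13 being positive, and 0.02 with 9 libraries (-0.03 with median-ratio scaling), 9 of 13 being positive. Both sets share the same KO libraries and 4 WT libraries, so they are not independent.

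**Figure D1:**
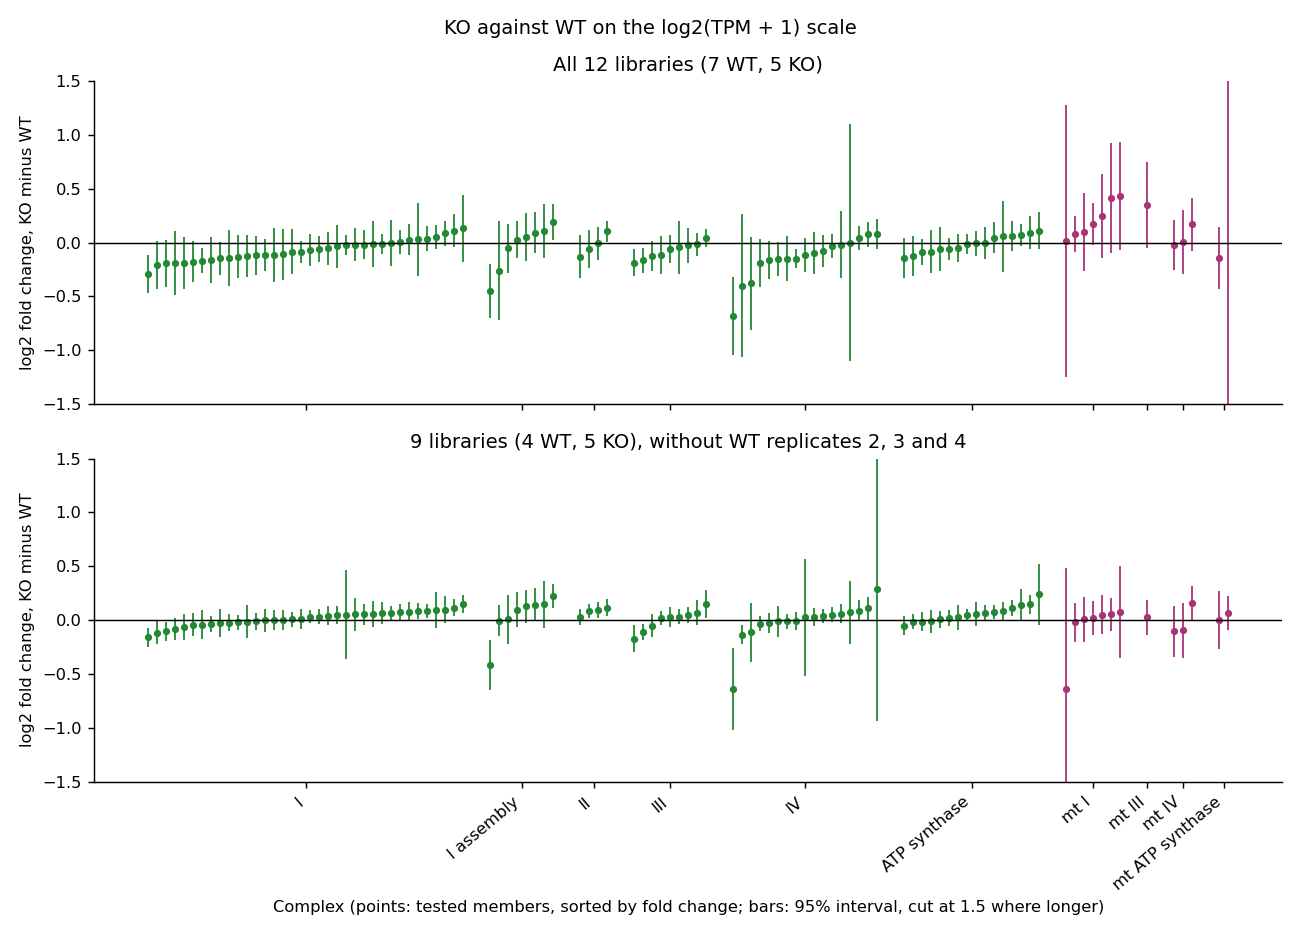
Log2 fold change of KO minus WT on the log2(TPM + 1) scale for each tested member, with its 95% interval from limma (vertical bars, cut at 1.5 where longer), grouped by complex, with all 12 libraries (upper panel) and with 9 libraries (lower panel). Green points are nuclear members and purple points mitochondrial ones; most nuclear points lie below 0 in the upper panel (65 of 90, against 4698 of all 11152 tested genes) and above 0 in the lower one (58 of 90, against 7532 of 11152).

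Complex I, the NADH dehydrogenase, had 37 nuclear members, of which 36 were tested, and 0 passed the test in either set of libraries. The median log2 fold change was -0.08 with 12 libraries and 0.02 with 9. The summed level of its nuclear members was 6066, 6073, 5938, 5997 and 6095 TPM in KO replicates 1 to 5 and 5873, 6190.4, 5889.6 and 6039 TPM in WT replicates 1, 5, 6 and 7, so these 9 libraries overlapped. WT replicates 2, 3 and 4 lay above all of them, at 7240.2, 7236 and 6499 TPM. Of the accessory subunits, Ndufa7 and Ndufb8 had the highest medians over the libraries.

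Ndufa11 (ENSMUSG00000002379, chromosome 17, 56717767 to 56722141 in mm10) encodes an accessory subunit of the membrane arm. It stood at 205, 199, 189.6, 192 and 186 TPM in KO replicates 1 to 5, at 215, 215, 229 and 209 TPM in WT replicates 1, 5, 6 and 7, and at 277, 256 and 275 TPM for WT replicates 2, 3 and 4. Every KO value lay below every WT value, which was true of 2 members, Ndufa11 and Cyc1 of complex III, against 0.637% of all tested genes. The log2 fold change of Ndufa11 was -0.29 ± 0.0806 (SE) with 12 libraries (limma adjusted p of 0.198) and -0.16 ± 0.0399 with 9 (adjusted p of 0.0671), so it did not pass in either. Without KO replicate 1 the 9-library test did call it.

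Ndufa7, another accessory subunit gene, had values of 371, 391, 370.1, 354 and 388 TPM in KO and 384, 402, 421 and 405 TPM in WT replicates 1, 5, 6 and 7, with KO replicates 2 and 5 reaching into the WT range. Its log2 fold change was -0.17 with 12 libraries and -0.10 with 9 (limma adjusted p of 0.217 and 0.198). Ndufs5, also an accessory subunit gene, was at -0.21 and -0.04. Ndufb3, an accessory subunit gene of the membrane arm, went the other way with 9 libraries. It stood at 102, 101, 105, 102 and 98.5 TPM in KO and 93.2, 95.1, 85.6 and 93.1 TPM in WT replicates 1, 5, 6 and 7, without overlap. Limma gave 0.15 ± 0.0379 (SE) on the log2 scale, with an adjusted p of 0.0733. With 12 libraries it was at -0.02, since WT replicates 2, 3 and 4 stood at 122, 128 and 111 TPM. Ndufs1 and Ndufv1, whose products carry iron-sulfur clusters and in Ndufv1 also the NADH site, likewise had all KO values above the 4 WT values, so that this was true of 3 of the 36 complex I genes, against 7.09% of all tested genes. The log2 fold changes were 0.05 and 0.12 for Ndufs1 and -0.11 and 0.09 for Ndufv1 (limma adjusted p with 9 libraries of 0.128 and 0.167).

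The 8 complex I assembly factors, which help to build the complex without staying in it, were expressed far lower than the subunits, with medians of 9.27 to 40.5 TPM. Ndufaf7 (ENSMUSG00000024082, chromosome 17, 78937136 to 78948052), a methyltransferase that modifies a core subunit of complex I, rose with 9 libraries. Its values were 20.7, 20.1, 22.2, 21.5 and 20.4 TPM in KO and 18.1, 18.6, 16.4 and 18.1 TPM in WT replicates 1, 5, 6 and 7, with all KO values higher. The log2 fold change was 0.23 ± 0.0489 (SE, 95% interval 0.12 to 0.34), with a limma adjusted p of 0.0472. WT replicates 2, 3 and 4 stood at 21.3, 21.7 and 24.1 TPM, within or above the KO range, and with 12 libraries the log2 fold change was 0.09 ± 0.0869 (adjusted p of 0.499). The call was lost whichever of the 9 libraries was left out (limma adjusted p of 0.0580 to 0.118).

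Ndufaf6 (ENSMUSG00000050323, chromosome 4, 11051045 to 11076205), an assembly factor needed for the mitochondrially encoded Nd1 subunit, had the lowest fold change of the assembly factors. It stood at 10.3, 8.54, 10.97, 11.9 and 9.11 TPM in KO, 16.2, 13.3, 13.8 and 12.2 TPM in WT replicates 1, 5, 6 and 7 and 18.5, 14.4 and 11.6 TPM for WT replicates 2, 3 and 4. The KO values lay below those of the 4 WT libraries, while WT replicate 4 fell inside the KO range. The log2 fold change was -0.45 ± 0.116 (SE) with 12 libraries and -0.42 ± 0.104 with 9, with limma adjusted p of 0.163 and 0.0682. Ndufaf8, which had one of the highest medians among them, was at 0.11 and 0.01. Ndufaf3, which acts early in assembly, was at 0.19 and 0.14 (limma adjusted p of 0.255 and 0.304).

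Complex II, succinate dehydrogenase, is encoded wholly in the nucleus and also works in the tricarboxylic acid cycle. None of its 4 genes passed the test. With 12 libraries 3 of the 4 log2 fold changes were negative, with a median of -0.03. With 9 libraries all 4 were positive, between 0.03 and 0.12, where 7532 of the 11152 tested genes were positive too. The complex summed to 528, 526, 523, 518 and 519 TPM in KO against 493, 505, 494 and 489 TPM in WT replicates 1, 5, 6 and 7, without overlap. WT replicates 2, 3 and 4 summed to 599, 624 and 557 TPM, above every KO library. Sdha, the flavoprotein subunit, stood at 125, 127, 128, 129 and 127 TPM in KO and 122, 123, 118 and 117 TPM in the 4 WT libraries. Its log2 fold change was -0.06 ± 0.0804 (SE) with 12 libraries and 0.08 ± 0.0284 with 9 (limma adjusted p of 0.640 and 0.162). Sdhb, the iron-sulfur subunit, was at -0.01 and 0.09. In Sdha and Sdhb, 2 of the 4 genes, all KO values lay above these WT values, against 7.09% of all tested genes. The membrane anchor Sdhc was at 0.10 ± 0.0447 with 12 libraries and 0.12 ± 0.0362 with 9 (limma adjusted p of 0.270 and 0.124), and the anchor Sdhd at -0.13 and 0.03.

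Complex III, the cytochrome bc1 complex, had 9 nuclear members and 0 calls. Cyc1 (ENSMUSG00000022551, chromosome 15, 76343523 to 76346260), which encodes its heme-bearing cytochrome c1, stood at 151, 139, 147, 149 and 146 TPM in KO, 162, 152, 157 and 160.1 TPM in WT replicates 1, 5, 6 and 7, and 188, 183 and 167 TPM for WT replicates 2, 3 and 4. The KO values lay below all WT values. The nearest values were close, the highest KO value being 151 and the lowest WT value 152 TPM. The log2 fold change was -0.19 ± 0.0576 (SE) with 12 libraries and -0.11 ± 0.0332 with 9 (limma adjusted p of 0.216 and 0.116).

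The small subunit gene Uqcrq stood at 381, 439.9, 420.1, 378 and 392 TPM in KO, against 458, 429, 442 and 481 TPM in WT replicates 1, 5, 6 and 7, with log2 fold changes of -0.17 and -0.17 and limma adjusted p of 0.216 and 0.128. KO replicate 2 lay inside the WT range. Uqcrh, the hinge subunit that contacts cytochrome c1, was at 0.15 with 9 libraries and -0.04 with 12. The 2 complex III genes at the highest levels, Uqcr11 and Uqcr10, had log2 fold changes of -0.03 and -0.13 with 12 libraries and 0.07 and -0.05 with 9.

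Complex IV, cytochrome c oxidase, had 21 nuclear members, of which 17 were tested, and 0 calls with 12 or 9 libraries. Cox6a1 (ENSMUSG00000041697, chromosome 5, 115345642 to 115348981), the form of subunit VIa found in most tissues, stood at 735, 742, 782, 726 and 705 TPM in KO and 813, 765, 831 and 834 TPM in WT replicates 1, 5, 6 and 7, with 831, 836 and 815 TPM for WT replicates 2, 3 and 4. WT replicate 5 reached into the KO range and the other 6 WT libraries lay above it. The log2 fold change was -0.15 ± 0.0422 (SE) with 12 libraries and -0.14 ± 0.0399 with 9, with limma adjusted p of 0.208 and 0.106. Cox6a2, the heart and muscle form, was near the lower limit of the filter. It stood at 1.22, 2.44, 1.04, 1.82 and 1.44 TPM in KO and 3.77, 3.07, 2.14 and 3.05 TPM in the same WT libraries, with KO replicate 2 inside the WT range. Its log2 fold change, which at such low levels understates the change in TPM, was -0.68 ± 0.167 and -0.64 ± 0.171 (adjusted p of 0.154 and 0.0825). Without WT replicate 6 the 9-library test called Cox6a2 lower.

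The isoform partners of complex IV differed in level by much more than the genotypes did. Cox4i1 stood at 1158 to 1687 TPM and its lung form Cox4i2 at 0.730 to 3.38 TPM. Cox7a2 stood at 300.2 to 382 TPM, its relative Cox7a2l, known for joining complexes III and IV, at 165 to 202 TPM, and the muscle form Cox7a1 at 24.9 to 47.4 TPM. Cox6b1 stood at 492 to 587 TPM against 0.230 to 3.39 TPM for the testis form Cox6b2, and Cox8a at 571 to 767 TPM while the muscle form Cox8b was listed at 0 in all 12 libraries. Cox7b2 and Cox8c were listed at 0 throughout as well. Ndufa4, a complex IV subunit despite its name, stood at 215 to 327 TPM, and its hypoxia-related partner Ndufa4l2 at 3.62, 4.40 and 3.01 TPM for WT replicates 2, 3 and 4 and 0.0300 to 0.960 TPM elsewhere. Fold changes of the low isoforms were imprecise. Cox4i2 and Cox6b2 were at -0.38 and -0.40 on the log2 scale with 12 libraries and at -0.11 and 0.03 with 9, and Cox6c2 was at 0.00 ± 0.506 (SE) with 12 and 0.29 ± 0.550 with 9. Cox6c2 (4.65 to 37.2 TPM) and Ndufa11b are annotated as processed pseudogenes, so reads could be shared with Cox6c and Ndufa11 and their levels are uncertain.

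**Figure D2:**
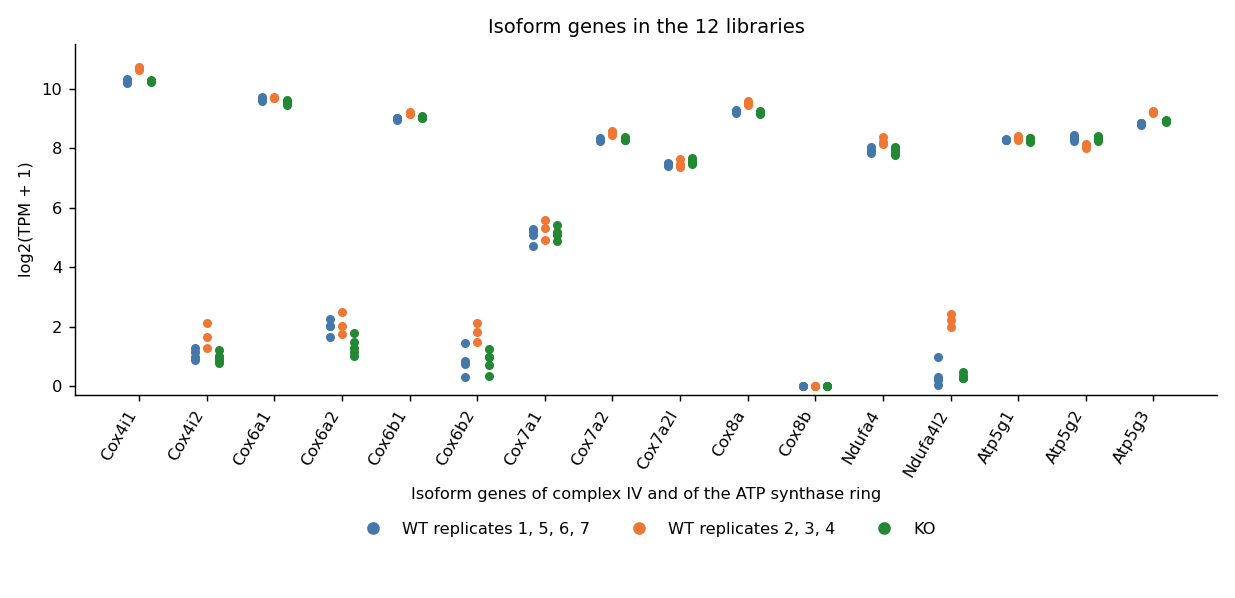
Level as log2(TPM + 1) of the isoform genes of complex IV and of the ATP synthase ring, each point being 1 library (blue, WT replicates 1, 5, 6 and 7; orange, WT replicates 2, 3 and 4; green, the 5 KO libraries). The common forms Cox4i1, Cox6a1, Cox6b1, Cox7a2 and Cox8a lie far above Cox4i2, Cox6a2, Cox6b2, Cox7a1 and Cox8b in all 12 libraries. Cox7a2l lies nearer to Cox7a2. The 3 orange points of Ndufa4l2 lie above the other points of that gene.

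ATP synthase had 16 nuclear members, all tested, with 0 calls and medians of -0.01 with 12 libraries and 0.05 with 9. Atp5b (ENSMUSG00000025393, chromosome 10, 128083273 to 128090391), the catalytic beta subunit, was the nuclear member with the highest median. It stood at 2018, 1997, 2076, 2151 and 2041 TPM in KO and 2179.6, 1976, 2035 and 2122 TPM in WT replicates 1, 5, 6 and 7, which overlapped, and at 2537, 2341 and 2791 TPM for WT replicates 2, 3 and 4. Its log2 fold change was -0.14 ± 0.0850 (SE) with 12 libraries and -0.01 ± 0.0396 with 9 (limma adjusted p of 0.339 and 0.881). Atp5a1 encodes the alpha subunit, which alternates with beta in equal number in the enzyme. Its transcript level was lower, and the ratio of Atp5b to Atp5a1 in TPM was 5.24 to 6.39 over the 12 libraries.

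Atp5f1, Atp5g3, Atp5j and Atp5a1 were the ATP synthase genes whose KO values all lay above WT replicates 1, 5, 6 and 7. Atp5j, a coupling factor of the stalk, stood at 274, 269, 270.4, 275 and 258 TPM in KO and 229.9, 256, 237 and 251 TPM in these WT libraries, with 289.6, 289 and 279 TPM for WT replicates 2, 3 and 4. Its log2 fold change was 0.05 ± 0.0653 (SE) with 12 libraries and 0.15 ± 0.0389 with 9 (limma adjusted p of 0.650 and 0.0825). Atp5f1, subunit b of the stalk, was at 0.07 ± 0.0461 and 0.11 ± 0.0321 (limma adjusted p of 0.369 and 0.0942). Counting all complexes, 10 members had KO values above these 4 WT libraries, against 7.09% of all tested genes, and 3 had them below, against 2.08%. Against all 7 WT libraries the count above was 0, where 2.92% of tested genes were. These counts are from TPM as deposited and are not given with median-ratio scaling, on which narrow gaps depend. Atp5s, a coupling factor at low levels, was at 0.06 and 0.24, and Atp5e, the epsilon subunit, at 0.06 and 0.02. Atp5o, which encodes the subunit that binds the stalk to the catalytic head, was at -0.13 and 0.02.

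The 3 genes of the membrane ring, Atp5g1, Atp5g2 and Atp5g3, encode near-identical mature proteins. Whether reads shared among them affect the level of each was not tested. Atp5g3 stood at 574, 590.0 and 602 TPM for WT replicates 2, 3 and 4, 462, 459, 439 and 454 TPM in the remaining WT libraries and 481, 479, 475, 489 and 468 TPM in KO. Atp5g2 showed the opposite order, at 278, 268 and 254 TPM for WT replicates 2, 3 and 4 and 304 to 346 TPM in the other 4 of WT, with KO at 298 to 335 TPM. The 3 genes together summed to 1164, 1171 and 1197 TPM for WT replicates 2, 3 and 4 and 1071 to 1134 TPM in the other 9. The NRF1 word shown above lies in the Atp5g2 window.

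The 13 genes of mitochondrial DNA encode core subunits of complexes I, III, IV and ATP synthase. None passed the test in either set of libraries. mt-Co1 (chromosome MT, 5328 to 6872), the catalytic subunit of complex IV, stood at 1996, 2322, 1836, 2124 and 2238 TPM in KO and 1923, 1924, 1983 and 1706 TPM in WT replicates 1, 5, 6 and 7, with overlap, and its log2 fold change was 0.17 ± 0.113 (SE) with 12 libraries and 0.16 ± 0.0733 with 9 (limma adjusted p of 0.371 and 0.286). The complex I subunit genes mt-Nd4 and mt-Nd5 had the highest fold changes with 12 libraries apart from mt-Atp8, at 0.41 ± 0.234 and 0.43 ± 0.231, and stood at 0.01 and 0.02 with 9. mt-Cytb, the catalytic cytochrome of complex III, had 0.35 and 0.03. The values of mt-Nd1 were 0.08 and 0.05, and those of mt-Nd2 0.17 and 0.05.

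The complex IV genes mt-Co2 and mt-Co3 had log2 fold changes of -0.02 and 0.00 with 12 libraries and -0.11 and -0.09 with 9. mt-Nd3 was at 0.10 and 0.07, mt-Nd6, the member encoded on the other strand, at 0.24 and -0.02, and mt-Atp6, the proton channel subunit of ATP synthase, at -0.14 and 0.00. mt-Nd4l was the most variable of the mitochondrial genes apart from mt-Atp8, at 16.3 to 143 TPM, with a log2 fold change of 0.01 ± 0.579 (SE) with 12 libraries and -0.64 ± 0.500 with 9. Its reading frame overlaps that of mt-Nd4 by 7 bases, and mt-Nd5 and mt-Nd6 overlap by 14 bases on opposite strands. Use of strand in the counting was not given in the sources used here, so reads in the overlaps cannot be placed.

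mt-Atp8, a small subunit of the ATP synthase membrane part, was listed at 0 in WT replicate 4 and between 3801 and 4936 TPM in the other 11 libraries. Its value in that library sets its 12-library log2 fold change, 1.77 ± 1.90 (SE), for which limma gave an adjusted p of 0.549. With 9 libraries it was 0.07 ± 0.0706 (adjusted p of 0.665). mt-Atp6 stood at 954 TPM in WT replicate 4, its highest value in the 12 libraries. The mt-Atp8 message (chromosome MT, 7766 to 7969, plus strand, GENCODE M21) is shown because it is 204 bases long and its last 43 bases, in capitals, are also the first 43 of mt-Atp6.
mt-Atp8: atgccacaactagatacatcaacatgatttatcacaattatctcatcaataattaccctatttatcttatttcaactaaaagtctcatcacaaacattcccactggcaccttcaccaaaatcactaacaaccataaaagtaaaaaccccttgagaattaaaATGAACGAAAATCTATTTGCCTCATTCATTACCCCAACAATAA
Neither fragment lengths nor the division of shared reads were given in the sources used here, and their part in the value of 0 was not tested. Sums over mitochondrial genes are therefore given without mt-Atp8.

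Nuclear and mitochondrial members were compared by their sums. The nuclear members summed to 23093, 23065, 22934, 22934 and 23022 TPM in KO replicates 1 to 5 and 22515, 23173, 22546 and 23069 TPM in WT replicates 1, 5, 6 and 7. The means were 23009.5 ± 73.6 TPM (SD, n = 5) in KO, 22826 ± 344 TPM (SD, n = 4) in these WT libraries and 24327 ± 1951 TPM (SD, n = 7) over all WT libraries. The 12 mitochondrial genes without mt-Atp8 summed to 8811 ± 828 TPM (SD, n = 5) in KO, 8653 ± 422 TPM (SD, n = 4) in WT replicates 1, 5, 6 and 7 and 8072 ± 884 TPM (SD, n = 7) in all WT libraries. The ratio of the mitochondrial to the nuclear sum was 0.346 to 0.423 in KO and 0.355 to 0.397 in these WT libraries, which overlapped, and 0.277, 0.296 and 0.257 in WT replicates 2, 3 and 4. All 3 lay below the other 9 libraries. The members other than mt-Atp8 together made up 3.26 to 3.66% of the listed TPM.

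**Figure D3:**
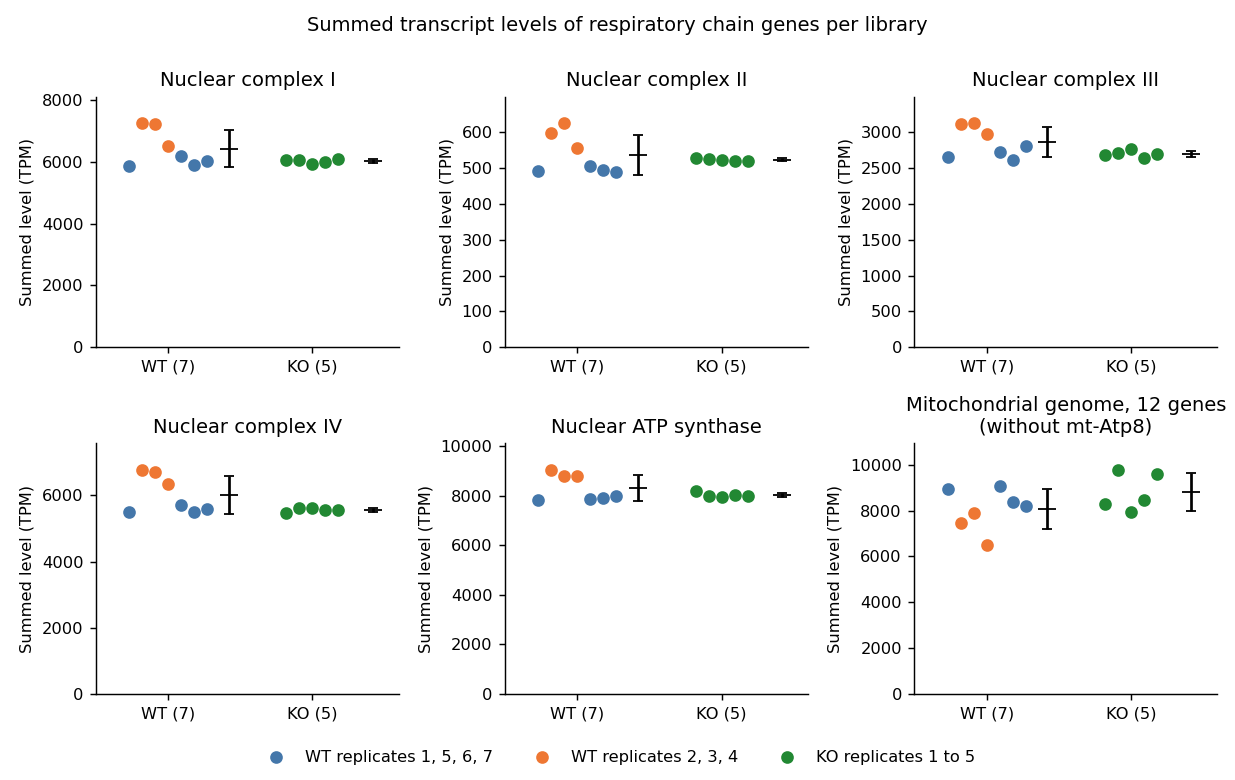
Summed level in TPM of the nuclear members of each complex and of the mitochondrial genes without mt-Atp8, each point being 1 library (blue, WT replicates 1, 5, 6 and 7; orange, WT replicates 2, 3 and 4; green, KO), with the mean and SD of 7 WT and 5 KO libraries as black bars. In all 5 nuclear panels the 3 orange points lie above all other points, and in the mitochondrial panel they lie below them.

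Over the 9 libraries the nuclear members varied little. Their median coefficient of variation was 4.84%, against 9.67% for the mitochondrial members and 8.60% for all tested genes. The assembly factors varied most among the nuclear groups, at 9.44%, and complex II least, at 3.91%. The levels behind these values differ, since the assembly factors are far less abundant.

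WT replicates 2, 3 and 4 were then set against WT replicates 1, 5, 6 and 7, member by member. In 51 of the 103 tested members all 3 values lay above all 4 others, against 29.9% of all tested genes, and in 8 all 3 lay below, against 28.3%. The other 44 overlapped. Of the 90 nuclear members 50 lay above and 3 below, and of the 13 mitochondrial members 1 lay above (mt-Atp6), 5 below (mt-Nd2, mt-Nd4, mt-Nd5, mt-Nd6 and mt-Cytb) and 7 overlapped. By complex, the nuclear members above were 20 of 36 in complex I, 4 of 8 assembly factors, 3 of 4 in complex II, 5 of 9 in complex III, 10 of 17 in complex IV and 8 of 16 in ATP synthase.

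The widest gaps above were those of Ndufaf2, Ndufb6, Ndufv1 and Atp5g3. Ndufaf2 (ENSMUSG00000068184, chromosome 13, 108002715 to 108158623), an assembly factor related to a complex I subunit, stood at 68.8, 69.3 and 73.9 TPM there, 39.3, 40.7, 32.5 and 36.7 TPM in WT replicates 1, 5, 6 and 7 and 41.7, 37.8, 43.9, 40.2 and 39.8 TPM in KO. The nearest values of the WT libraries were 0.76 apart on the log2 scale. Ndufb6, an accessory subunit of the membrane arm, stood at 211, 206 and 195 TPM against 128 to 150.3 TPM in the remaining WT libraries, and Ndufv1 at 117, 107 and 102 against 77.6 to 79.96 TPM. Cox4i1 stood at 1687, 1644 and 1584 TPM against 1158 to 1295 TPM.

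The 3 nuclear members below were Ndufs8, Atp5g2 and Ndufb5. Ndufs8 (ENSMUSG00000059734, chromosome 19, 3908863 to 3912774), an iron-sulfur subunit next to the quinone site of complex I, stood at 84.8, 89.4 and 103 TPM for WT replicates 2, 3 and 4 and 137, 131, 147 and 140.4 TPM in the remaining WT libraries, with 137, 123, 126, 133 and 121 TPM in KO. It thus went against Ndufv1, which lies on the same chromosome and serves the same electron path. Ndufb5, a membrane arm subunit, stood at 112, 109 and 97.6 TPM against 121 to 129 TPM. The NRF1 word occurred in 3 of 42 members above that had a window, 1 of 3 below and 3 of 28 that overlapped.

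**Figure D4:**
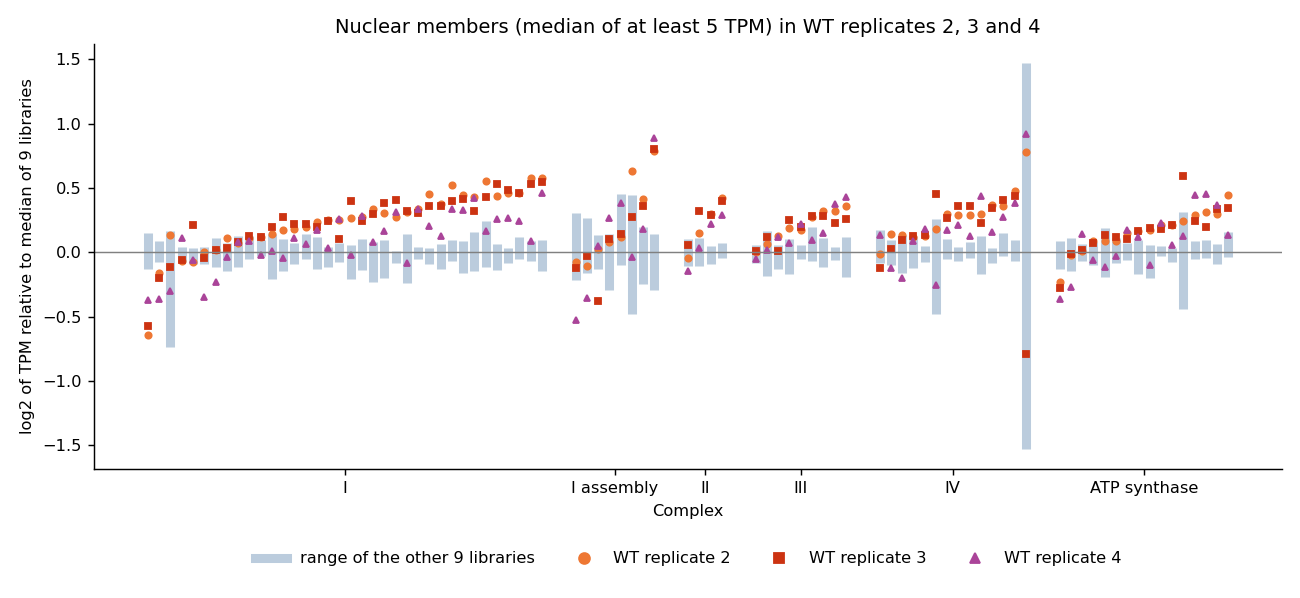
Level of each nuclear member with a median of at least 5 TPM in WT replicates 2 (circles), 3 (squares) and 4 (triangles), as log2 of TPM relative to the median of the other 9 libraries, whose range is the grey-blue bar, grouped by complex. Most symbols lie above 0 in every complex, and the first member of complex I, Ndufs8, lies below its bar in all 3.

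The mitochondrial genes varied among themselves in these 3 libraries. Taken in their order along mitochondrial DNA, each level was divided by the median of the other 9 libraries. The ribosomal RNA gene mt-Rnr1, which is no member and lies first, gave ratios of 3.45, 3.24 and 2.60 in WT replicates 2, 3 and 4, and mt-Rnr2 gave 1.81, 1.76 and 1.58. mt-Nd1, the first of the protein genes, gave 0.960, 0.998 and 0.854. The next, mt-Nd2, was already lower, at 0.815, 0.865 and 0.743. The genes between did not follow their order. mt-Co1 gave 1.02, 1.14 and 0.690 and mt-Co2 1.01, 1.04 and 0.819. mt-Atp6 gave 1.06, 1.27 and 1.37, mt-Co3 0.966, 0.649 and 1.01 and mt-Nd3 0.750, 1.03 and 1.07. Further on, mt-Nd4 gave 0.561, 0.615 and 0.422, mt-Nd5 0.517, 0.602 and 0.434 and mt-Cytb 0.600, 0.645 and 0.532, while mt-Nd6 on the other strand gave 0.744, 0.857 and 0.514. The ratios were thus highest at the ribosomal RNA genes in all 3 libraries. Apart from mt-Nd4l, which was low and variable, and the 0 of mt-Atp8 in WT replicate 4, they were lowest at mt-Nd4 and mt-Nd5.

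In TPM, mt-Nd5 stood at 281, 327 and 236 in WT replicates 2, 3 and 4, at 576, 581, 533 and 499.6 in the other WT libraries and at 504, 589.6, 516, 543 and 624 in KO. mt-Nd4 stood at 282, 309 and 212 TPM against 428 to 588 TPM in the other 9 libraries, and mt-Cytb at 518, 557 and 459 TPM against 796 to 995 TPM. The gap between the nearest WT values was -0.61 on the log2 scale for mt-Nd5 and mt-Nd4 and -0.52 for mt-Cytb. Selection of poly(A) RNA or removal of ribosomal RNA was not given in the sources used here, so the ribosomal RNA values are levels in these libraries and not in the cells.

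**Figure D5:**
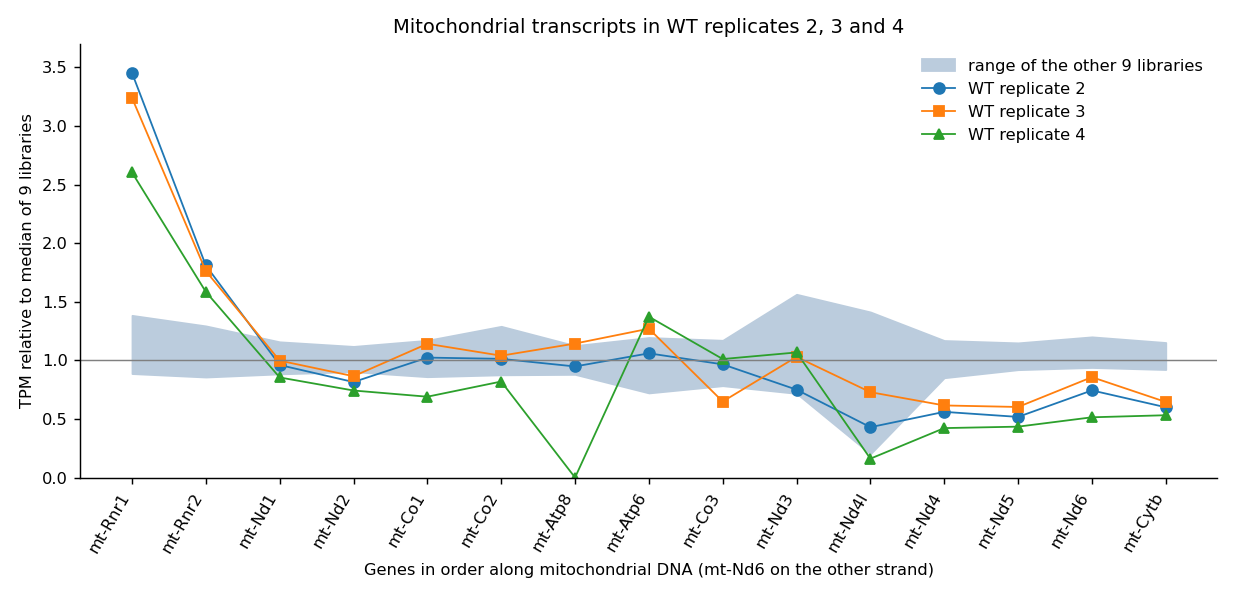
TPM of each mitochondrial gene in WT replicates 2 (circles), 3 (squares) and 4 (triangles) relative to the median of the other 9 libraries, whose range is the shaded band, in gene order along mitochondrial DNA. The 3 lines lie above the band at mt-Rnr1 and mt-Rnr2 and below it at mt-Nd2, mt-Nd4, mt-Nd5, mt-Nd6 and mt-Cytb.

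Other marker sets also stood apart in these 3 libraries. Besides the fibroblast and smooth muscle sums given above, in which 5 of 6 and 5 of 5 tested markers lay above the other WT libraries, cell cycle genes summed to 562, 587 and 621 TPM for WT replicates 2, 3 and 4, 244 to 417 TPM in KO and 235 to 342 TPM in the remaining WT libraries. All 8 of them lay above. Of all tested genes, 29.9% lay above the other WT libraries in these 3 libraries and 28.3% below. Neutrophil markers summed to 78.6, 85.7 and 107 TPM for WT replicates 2, 3 and 4, 909.6 to 5724 TPM in KO and 1078 to 1369 TPM in the remaining WT libraries, and 6 of 6 tested lay below. Macrophage markers summed to 19544, 25269.9 and 7454 TPM for WT replicates 2, 3 and 4, 11335 to 12135 TPM in KO and 20670.5 to 23553 TPM in the remaining WT libraries, and 5 of 10 lay below the other WT libraries. Lyz2 was the largest part of these sums, so they mostly follow that gene. It stood at 16587, 21547 and 5232 TPM for WT replicates 2, 3 and 4, 4932 to 5853 TPM in KO and 14635 to 16912 TPM in the remaining WT libraries. No marker of these lists was listed at 0 in all libraries. The part of these cell type and cell cycle markers in the member values was not tested.

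Of the 10 macrophage markers, 0 were called by genotype with 12 libraries and 2 with 9, against 0.126% and 2.33% of all tested genes. With 9 libraries Lyz2, the macrophage lysozyme, fell by 1.55 (log2) and Cd14, a lipopolysaccharide receptor, rose by 0.51 (adjusted p of 5.7e-06 and 0.0458 in limma). With 12 libraries neither passed, at -1.40 and 1.497 (adjusted p of 0.111 and 0.231 in limma). Lyz2 stood at 4932, 5526, 5575, 5146 and 5853 TPM in KO, at 15594, 16912, 16127 and 14635 TPM in WT replicates 1, 5, 6 and 7 and at 16587, 21547 and 5232 TPM for WT replicates 2, 3 and 4, so that WT replicate 4 lay inside the KO range. Neutrophil markers reached from 909.6 to 5724 TPM within KO. With 6 tested and 0 called in limma, their part in the KO values was not tested.

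The rest of the mitochondrial machinery was read from lists outside the rule, and 0 genes of any were called by limma with 12 or 9 libraries. The genes given with fold changes from each list were those widest with 9 libraries. With 12 libraries some others were wider, such as Coq8a at -0.96 and -0.22. Of 77 tested genes for mitochondrial ribosomal proteins the median log2 fold change was -0.03 with 12 libraries and -0.002 with 9, and Mrps23 (0.17 and 0.22) and Mrps12 (-0.37 and -0.28) had the widest values with 9. Assembly factors of complexes II to IV numbered 26 tested, with medians of 0.01 and 0.02. Cox20, a chaperone of mt-Co2, was at 0.20 and 0.25 (limma adjusted p of 0.228 and 0.0511), and Sdhaf1 at -0.19 and -0.16. The 9 other assembly factors of complex I and ATP synthase had medians of -0.03 and 0.08, with Foxred1 at 0.32 and 0.17 and Nubpl at 0.02 and 0.11. Electron carriers and enzymes linked to quinone (16 tested) had medians of -0.05 and 0.05, with Coq4 at -0.21 and -0.31 and Pdss1 at 0.36 and 0.30.

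Among 13 tested genes for copying and transcribing mitochondrial DNA, the medians were 0.05 and 0.05. Tfam, the packaging and transcription factor of mitochondrial DNA, stood at 21.2, 24.7, 24.2, 20.6 and 21.9 TPM in KO and 19.4, 20.9, 21.8 and 19.1 TPM in WT replicates 1, 5, 6 and 7, which overlapped, with log2 fold changes of 0.23 and 0.14, and Tfb1m was at 0.21 and 0.11. WT replicates 2, 3 and 4 stood at 18.6, 15.9 and 18.3 TPM for Tfam, below the other 9. Mitochondrial RNA handling genes (14 tested) had medians of 0.01 and -0.01, with Fastkd3 at 0.05 and -0.17 and Slirp at -0.12 and -0.09. Nuclear regulators of respiratory genes (12 tested) had medians of 0.10 and 0.03, with Sirt1 at 0.20 and 0.14 and Pparg at 0.39 and 0.12. Ppargc1a, the best known coactivator of these genes, was at 0 to 0.130 TPM and was not tested. Inner membrane carriers and porins (7 tested) had medians of -0.07 and 0.04, with Ucp2 at 0.57 and 0.09 and Vdac1 at -0.07 and 0.09.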

How the data were processed

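Libraries from total RNA (NEBNext Ultra) were read as pairs of 51 bases, on average 30000000 pairs each, per the labels' protocols. Salmon 1.2.0, bcl2fastq and mm10 are named in the submitters' processing notes. Annotation, gene summing and strand use were not given in the sources used here. TPM values were deposited by the authors for 23438 genes in 12 libraries (940127 to 947987 TPM listed per library). TPM keeps no depth, so the reads behind a value are unknown and no counting interval was computed. A rise of abundant messages lowers all other TPM values.

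Symbols and coordinates came from GENCODE M21 (23423 IDs matched). Levels are TPM with SDs. KO was compared with WT by limma-trend (limma 3.58.1, R 4.3.3) on log2(TPM + 1), a pseudocount of 1. It covered the 11152 genes that reached 1 TPM in 5 or more libraries, adjusted by Benjamini-Hochberg over all of them, with a threshold of 0.05. The fit was also run on simulated data, with values drawn independently for each gene and library. Such data lack the joint shift of WT replicates 2, 3 and 4, so they do not check the p-values with 12 libraries. Count models were not used. Fold changes on this scale understate changes of low genes. Promoters came from RefSeq windows and were searched for exact words.

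The members and lists were chosen with earlier results of these data known. The genes named were Smarcd1, all mitochondrial members, called members, the 2 members of each complex highest in level and the 2 with the widest fold changes, isoform partners, the 4 widest gaps on each side in WT replicates 2 to 4, and called genes of the lists or up to 2 others. Members whose KO values lay outside the WT range, members holding a promoter word, Ndufb5, Ndufaf3, Tfam and Ppargc1a were named after their values were seen. Alternatives were 2 scalings, no filter, a pseudocount of 0.1, a submission block, a replicate block, leaving out each library, and WT replicates 2, 3 and 4 left out together. The submission block set WT replicates 1 to 3 and KO replicates 1 and 2 against the rest, by the running number in the sample names. No label marks these as a batch. Leaving out mt-Atp8 was added after seeing the data.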

Additional observations from a re-analysis of the deposited data

Results flagged for a closer look

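In each genotype the highest and lowest library was set against the others by Dixon's test, over 138 groups of values, and 8 stood apart. Chance alone places about 1 in 20 groups there. Groups of 7 WT libraries hold WT replicates 2, 3 and 4, so a library standing apart among them can be any of these.

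Of the nuclear members, Atp5g1 stood at 341 TPM in WT replicate 4, above 307 to 317 TPM in the remaining WT libraries. Atp5g2 stood at 298 TPM in KO replicate 5, below 325 to 335 TPM in the other KO libraries. Cox6a1 stood at 765 TPM in WT replicate 5, below 813 to 836 TPM in the remaining WT libraries.

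Of the mitochondrial members, mt-Nd3 stood at 321 TPM in WT replicate 5, above 147 to 219 TPM in the remaining WT libraries. mt-Atp8 was listed at 0 in WT replicate 4, against 4092 to 4936 TPM in the remaining WT libraries. The sums over mitochondrial genes were low in the same library. The complex IV genes of mitochondrial DNA summed to 2952 TPM, against 3520.0 to 3832 TPM in the remaining WT libraries. The ATP synthase genes summed to 954 TPM, against 4828 to 5818 TPM, and all 13 mitochondrial genes to 6518 TPM, against 11566 to 13369 TPM. The last 2 sums include mt-Atp8, so that they contain its value of 0.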

How the results depend on the processing

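With 12 libraries, 0 members were called in every setting that kept WT replicates 2, 3 and 4 in whole or in part, and 1 when the 3 were left out together. With 9 libraries the count of 1 became 4 with median-ratio scaling (Ndufa11, Cyc1, Cox6a1 and Ndufaf6, all lower, without Ndufaf7) and 0 with no filter and with the submission block. Leaving out 1 of the 9 libraries gave 0 to 1 (Cox6a2 without WT replicate 6, Ndufa11 without KO replicate 1). Ndufaf7 was called in 2 of 16 alternatives, with adjusted p of 0.0425 to 0.713. The median of the nuclear members with 9 libraries was -0.019 with median-ratio scaling, against 0.03. With 12 libraries it lay between -0.11 and 0.03, and that of the mitochondrial members between 0.02 and 0.20. The count of members above the other WT libraries in WT replicates 2, 3 and 4 was 42 with median-ratio scaling and 51 to 67 with 1 library left out. Over all genes the 14 calls with 12 libraries became 260 when WT replicates 2, 3 and 4 were left out together and 0 to 36 in other settings, and the 260 with 9 libraries (180 higher, 80 lower) became 0 to 462, with 79 higher and 146 lower under median-ratio scaling.

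No label says that a replicate number marks a shared source. Deviations of same-numbered libraries had correlations of 0.222, 0.204, 0.135, -0.224 and -0.181. These values cannot decide whether the numbers pair the libraries, since the split among the WT libraries described above also enters the WT deviations. The replicate block gave 0 members called on 10 libraries and 0 on the 4 that share numbers among the 9. Without the block these libraries also gave 0, while over all genes the 10 libraries gave 13 calls without it and 0 with it. Depth is unknown for TPM, so low members such as Cox6a2, Cox6b2 and Cox4i2 are the least certain.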

Other observations

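The ADP/ATP carriers, which exchange the product of ATP synthase across the inner membrane, were read for their isoforms. Slc25a4, the heart and muscle form, stood at 335, 311 and 401 TPM for WT replicates 2, 3 and 4 and 165 to 193 TPM in the other 9 libraries. Slc25a5, the form of dividing cells, stood at 445, 417 and 469 and 343 to 371 TPM. The ratio of Slc25a4 to Slc25a5 was 0.752, 0.745 and 0.854 in the 3 libraries, 0.445 to 0.517 in the other WT libraries and 0.498 to 0.551 in KO. Cycs, the cytochrome c gene, stood at 50.7, 45.02 and 49.7 TPM in the 3 libraries and 41.5 to 47.8 TPM in the others, which overlapped.

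Of the enzymes acting on mitochondrial DNA, the helicase gene Twnk stood at 7.31, 6.58 and 9.27 TPM for WT replicates 2, 3 and 4 and 4.95 to 6.14 TPM elsewhere. The RNA polymerase gene Polrmt stood at 18.1, 16.03 and 19.9 and 17.04 to 22.3 TPM, which overlapped. Of 77 tested mitochondrial ribosomal protein genes, 31 lay above the other WT libraries in WT replicates 2, 3 and 4 and 7 below, against 29.9% and 28.3% of all tested genes.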
